A study of Mus musculus with 4 samples.

Results

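*Cst3*, *Cst8*, *Cst11*, *Cst12* and *9230104L09Rik* are 5 cystatin genes that lie in 1 run on mouse chromosome 2. They were chosen by name from the 16892 genes of a single-cell expression matrix of the mouse epididymis and vas deferens, and all 5 were measured. *Cst8*, *Cst11*, *Cst12* and *9230104L09Rik* belonged almost entirely to the principal cells of the most proximal caput, where together they took 3.85% of the UMIs (unique molecular identifiers, each a counted mRNA molecule) of the first principal cell subcluster. *Cst3* was found in every cell type and was highest in the populations labelled BasalMacrophages, Dendritic and MacrophagesTrem2.

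Cystatins are small, mostly secreted proteins named for their ability to block papain-like cysteine proteases such as the lysosomal cathepsins. *Cst3* encodes cystatin C, an inhibitor made in most tissues. *Cst8*, *Cst11* and *Cst12* belong to the CRES (cystatin-related epididymal spermatogenic) subgroup, which lacks part of the consensus needed to bind those proteases and is known from the proximal epididymis, where its products are secreted into the lumen through which sperm pass. *9230104L09Rik* is listed by RefSeq as *Cstdc2*, a gene with a cystatin domain.

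The tissue came from adult male FVB/NJ mice of 10 to 12 weeks, none of them treated or genetically modified as far as the labels say. Epididymides of 4 mice (8 organs) were depleted of sperm and cut into caput, corpus, cauda and vas deferens, and the 8 pieces of each region were pooled into 1 library on the 10x platform. The depth was 4408989 UMIs over 1433 cells for the caput, 6602962 over 2325 for the corpus, 4882822 over 1616 for the cauda and 10744928 over 3506 for the vas deferens. With 1 library per region no value has a replicate, so no test was made and region, dissection and library cannot be told apart. Each interval below is a 95% interval. For levels, ratios and shares of UMIs it covers counting error only, not the spread between cells. For shares of cells it covers the sampling of cells within 1 library. Cell types are those of the deposited annotation, with 15 subclusters of principal cells numbered from the most proximal (1) to the vas deferens (12 to 15). Of the cell barcodes, 43 occurred in more than 1 library (86 cells).

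The annotation was checked against marker genes. The markers of clear, muscle, stromal and endothelial cells were highest in their own type for 3 of 3 genes each. Of the basal markers, *Krt5* and *Krt14* were highest in basal cells and *Itga6* in endothelial cells, and of the immune markers *Ptprc* and *Laptm5* were highest in immune cells and *Cd52* in principal cells. Of the 3 markers of the initial segment, *Rnase10* and *Mfge8* were highest in principal cells and *Lcn2* in basal cells (3482 UPM, in UMIs per 1000000 UMIs of the group, against 1068 in principal cells). *Rnase10* stood at 1882 UPM in principal 1, 1693 in principal 2 and 54.1 in principal 3, *Mfge8* at 4560, 2701 and 541 UPM and *Lcn2*, the least confined of the 3, at 9194, 5178 and 4047 UPM. *Gpx5*, a marker of the caput, stood at 57990 UPM in caput principal cells and between 1.07 and 16.1 UPM in the principal cells of the other libraries. Markers of germ cells (3 of 6 in the matrix) did not reach 20 UMIs.

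In the GENCODE annotation of GRCm38 the members span 107 kb of chromosome 2, from 148768609 to 148875692. *Cst11* (148768609 to 148771497, minus strand) comes first, followed by *Cst12* (148789361 to 148793546, plus strand), *Cst8* (148798785 to 148805595, plus strand), *9230104L09Rik* (148846711 to 148865038, minus strand) and *Cst3* (148871722 to 148875692, minus strand). The span holds 8 protein-coding genes, the other 3 being *8030411F24Rik*, *Cst13* and *Cst9*. No stretch of 31 bases in the transcripts of a member occurred in the transcripts of another gene, and reads with several possible origins had been left out of the counts.

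Because 4 of these neighbours shared one pattern and the fifth did not, the 250 bases before their RefSeq start sites are shown, 5′ to 3′ on the strand of each gene (GRCm38.p6), for the 4 of 5 members with an entry. The windows are chr2:148789115-148789364 for *Cst12*, chr2:148798589-148798838 for *Cst8*, chr2:148850935-148851184 (minus strand) for *9230104L09Rik* and chr2:148875513-148875762 (minus strand) for *Cst3*. Each RefSeq start lies inside the longer GENCODE gene, which begins at 148789361 for *Cst12*, 148798785 for *Cst8* and 148875692 for *Cst3*. These 3 windows thus overlap their genes in part, and that of *9230104L09Rik* lies wholly inside its gene. Capitals mark matches on either strand to the letters AGAACA, a half-site for the androgen receptor.
Cst12: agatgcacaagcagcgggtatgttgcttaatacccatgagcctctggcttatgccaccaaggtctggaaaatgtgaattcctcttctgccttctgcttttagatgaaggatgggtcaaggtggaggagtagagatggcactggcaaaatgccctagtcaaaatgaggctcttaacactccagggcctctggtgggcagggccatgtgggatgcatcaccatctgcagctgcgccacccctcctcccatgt
Cst8: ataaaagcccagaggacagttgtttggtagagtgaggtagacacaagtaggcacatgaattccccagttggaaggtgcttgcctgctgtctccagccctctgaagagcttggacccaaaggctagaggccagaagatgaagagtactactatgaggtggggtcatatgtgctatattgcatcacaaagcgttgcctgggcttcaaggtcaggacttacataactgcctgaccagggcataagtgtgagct
9230104L09Rik: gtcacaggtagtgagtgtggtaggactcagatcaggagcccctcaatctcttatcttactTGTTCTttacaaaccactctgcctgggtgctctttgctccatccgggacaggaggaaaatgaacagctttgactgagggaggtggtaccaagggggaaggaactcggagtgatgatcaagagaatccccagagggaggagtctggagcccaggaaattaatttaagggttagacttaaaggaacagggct
Cst3: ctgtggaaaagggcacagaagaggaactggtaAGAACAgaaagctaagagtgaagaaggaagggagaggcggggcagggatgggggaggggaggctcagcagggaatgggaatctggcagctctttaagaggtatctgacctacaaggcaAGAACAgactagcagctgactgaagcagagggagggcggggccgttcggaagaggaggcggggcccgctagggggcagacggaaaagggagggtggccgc
Of 32851 such windows, 16.1% hold AGAACA or its reverse, 12.4% hold TATAAA, 33.8% CCAAT and 19.7% GGAAGT, the last being the core of sites for ETS factors. *Cst8* and *Cst12* held none of these 4, *9230104L09Rik* held 1 match to AGAACA and *Cst3* held 2. The GC content was 52.8% for *Cst12*, 49.6% for *Cst8* and *9230104L09Rik* and 59.6% for *Cst3*, with 2, 1, 2 and 8 CpG dinucleotides respectively, against medians of 52.4% and 6 over all windows. None of these motifs occurred in all 3 windows of *Cst8*, *Cst12* and *9230104L09Rik*.

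Levels in principal cells were compared across the 4 libraries to ask how each cystatin is placed along the tube. *Cst11* had 18193 UMIs in the caput, or 10556 UPM (interval 10403 to 10710), against 2.11 UPM in the corpus (3 UMIs), 1.15 in the cauda (2 UMIs) and 0.427 in the vas deferens (2 UMIs). It ranked 8 among the 12945 genes detected in caput principal cells, and its level there was 4992 times that of the corpus (1708 to 24209). *9230104L09Rik*, at rank 9, had a caput level of 7518 UPM (7389 to 7648), against 6.19 in the vas deferens (29 UMIs), 0.575 in the cauda (1 UMI) and 0 in the corpus. Its nearest library was the vas deferens, 1214-fold lower (845 to 1813).

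The remaining pair was less abundant but as narrowly placed. *Cst12* stood at 1868 UPM in caput principal cells (1804 to 1934), 0.575 in the cauda (1 UMI) and 0 in the other libraries. *Cst8* stood at 1601 UPM (1542 to 1662, or 999 as a mean over cells), 0.214 in the vas deferens (1 UMI) and 0 in the corpus and cauda. With the corpus raised to a floor of 3 UMIs, the caput level was 884-fold higher for *Cst12* (302 to 4287) and 757-fold higher for *Cst8* (259 to 3673). As a mean over cells it was 713-fold and 472-fold higher. These sizes depend on the floor. For a count of 0 in principal cells the interval reaches 2.60 UPM in the corpus, 2.12 UPM in the cauda and 0.788 UPM in the vas deferens. *Cst3* differed from the other members in this comparison: its highest level was 2316 UPM in the vas deferens (2273 to 2360), ahead of the cauda with 1284 (1231 to 1338), the corpus with 1250 (1192 to 1309) and the caput with 1201 (1150 to 1254). The intervals of the last 3 overlapped, although the ratio of the caput to the cauda was 0.936 (0.881 to 0.994).

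**Figure D1:**
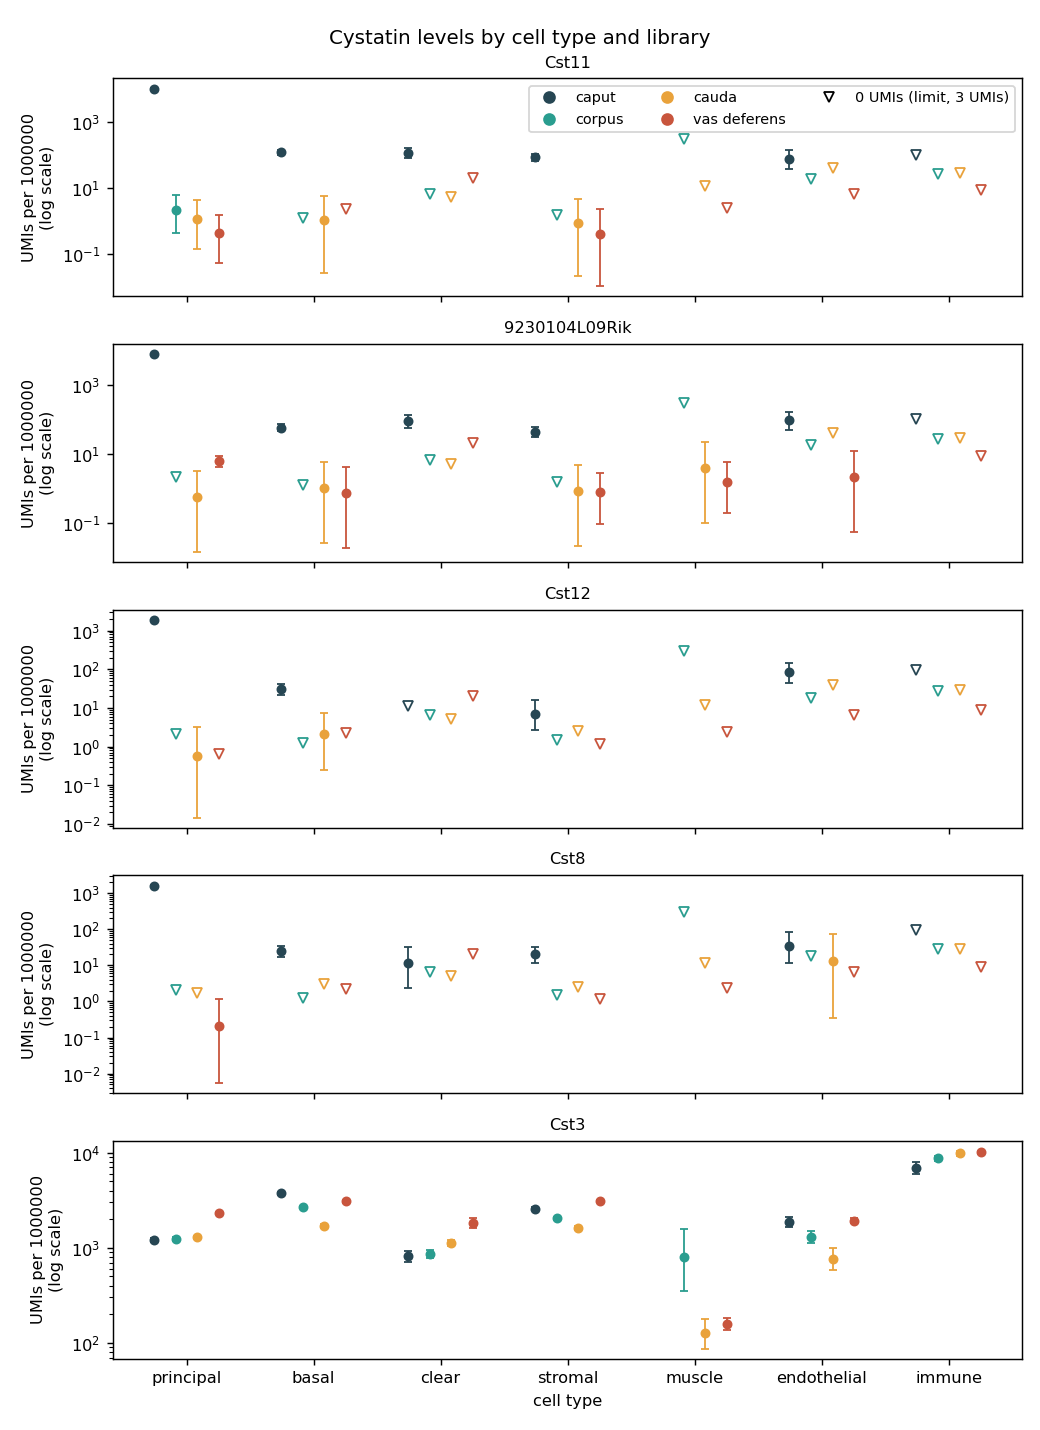
Level of each cystatin (UMIs per 1000000, log axis) in 7 cell types, coloured by library, with 95% Poisson intervals; open triangles mark groups with 0 UMIs, drawn at the limit of 3 UMIs. The caput principal cells stand far above every other group for the upper 4 genes, whereas *Cst3* is present in all groups and highest in immune cells.

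A gene was counted as caput-restricted with at least 20 UMIs in caput principal cells and at least 4 times the level of each other library (at the floor where 0). By this rule 271 of 6986 genes that could pass it did (3.88%), and 4 of the 5 members did: *Cst8*, *Cst11*, *Cst12* and *9230104L09Rik*. Over the tested genes the median ratio of the caput to the highest other library was 0.724, and 20 genes reached 500-fold or more, of which these members were 4. None of the 5 passed the same rule for the corpus (1.95% of tested genes), the cauda (0.870%) or the vas deferens (1.90%), for which *Cst3* was the only member with enough UMIs to pass. Across cell types, 4 of 5 members were principal-restricted (4 times the level of every other type, all libraries together) against 4.75% of tested genes, the exception again being *Cst3*. For immune cells *Cst3* did not pass the same rule either (9.95% of tested genes). At a threshold of 2 in place of 4 it did pass, with 408 of 2994 tested genes called.

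Within the caput, the 4 cystatins were placed in the first 2 of the 15 principal subclusters, all of whose cells (144 in principal 1 and 353 in principal 2) came from the caput library. These subclusters were built by the authors from the same counts, so levels across them are a description. The authors also identified the initial segment cells by genes that include *Cst11*, and list *Cst12* as a marker of principal 2. The place of these genes is thus not independent of how the subclusters were named. *Cst11* stood at 20014 UPM in principal 1, 9243 in principal 2, 950.2 in principal 3, 43.5 in principal 4 and 37.2 in principal 5. *9230104L09Rik* stood at 13000, 7445, 126, 43.5 and 22.7 UPM in the same order. *Cst8* stood at 2999, 1429, 102, 34.8 and 4.13 UPM. Each of these 3 genes was thus highest in principal 1 and next in principal 2, and lower again by principal 3.

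*Cst12* differed the least of the 4 between the first 2 subclusters. It stood at 2505 UPM in principal 1, 2285 in principal 2, 54.1 in principal 3 (9 UMIs), 34.8 in principal 4 (4 UMIs) and 0 in principal 5. The level in principal 1 over that in principal 2 was 2.17 (2.10 to 2.23) for *Cst11*, 2.10 (1.95 to 2.27) for *Cst8*, 1.75 (1.69 to 1.81) for *9230104L09Rik* and 1.26 (1.15 to 1.39) for *Cst3* (1.94 as a mean over cells). For *Cst12* it was 1.10 (1.02 to 1.18), but 1 cell called a doublet held 181 of the 1278 *Cst12* UMIs of principal 1, and without called doublets the ratio was 0.952 and as a mean over cells 0.687, so the order of the subclusters is not settled for this gene. From principal 2 to principal 3 the level was lower by 59.0-fold (38.5 to 95.3) for *9230104L09Rik*, 42.2-fold (22.2 to 92.5) for *Cst12*, 13.97-fold (8.69 to 24.1) for *Cst8* and 9.73-fold (8.31 to 11.5) for *Cst11*. In principal 3 these counts came from few cells, with 21 UMIs of *9230104L09Rik* in 4 cells, 9 of *Cst12* in 3, 17 of *Cst8* in 7 and 158 of *Cst11* in 22, so the sizes of the step are not ranked. *Cst3* was 0.974 times as high in principal 2 as in principal 3 (0.834 to 1.14).

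**Figure D2:**
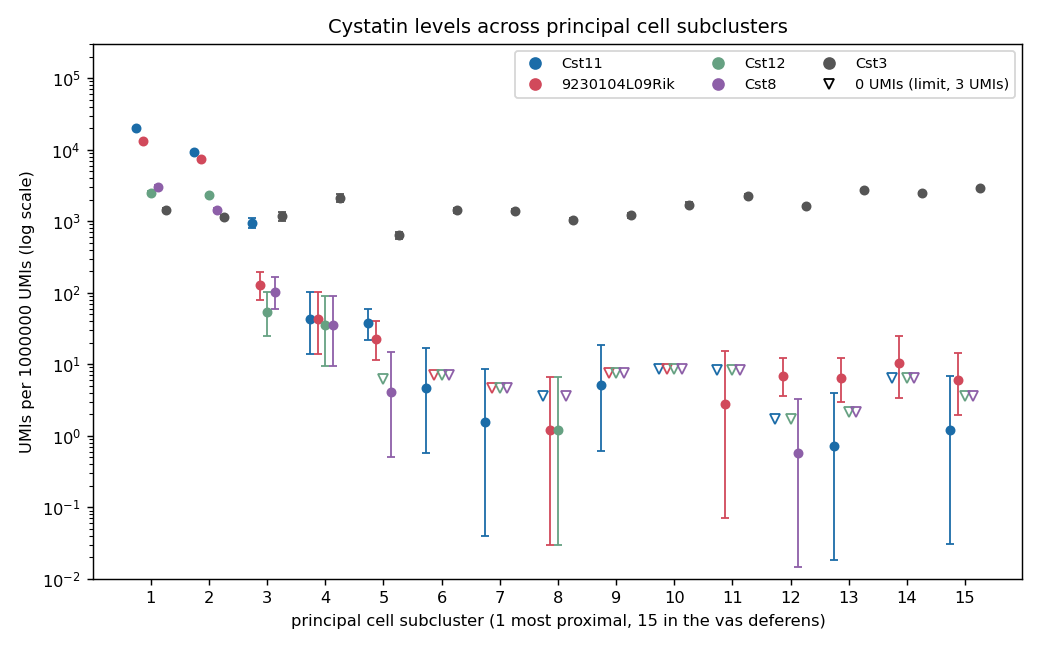
Level of each cystatin (UMIs per 1000000, log axis) in the 15 principal cell subclusters, with 95% Poisson intervals; open triangles mark 0 UMIs, drawn at the limit of 3 UMIs. *Cst11*, *9230104L09Rik*, *Cst12* and *Cst8* are highest in subclusters 1 and 2 and sparse from 6 on, while *Cst3* stays between 636 and 2911 throughout.

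In principal 1, *Cst11* ranked 6 by UMIs among 10583 detected genes, *9230104L09Rik* 7, *Cst8* 29, *Cst12* 30 and *Cst3* 71. The summed share of *Cst8*, *Cst11*, *Cst12* and *9230104L09Rik* was 3.85% of UMIs in principal 1, 2.04% in principal 2 and 0.123% in principal 3. Principal 1 and 2 together held 97.0% of all UMIs of *Cst8* in the series, 97.4% of those of *Cst11* and 97.7% of those of *Cst12*. Over principal 6 to 15 (2995 cells) the counts were 7 UMIs for *Cst11*, 1 each for *Cst8* and *Cst12* and 33 for *9230104L09Rik*. None of the members passed a rule for principal 1 alone (at least 4 times every other subcluster), which 0.112% of 894 tested genes passed. The 1 gene that passed was *Defb47*, a beta-defensin gene chosen here after its value was seen. The same rule with principal 1 and 2 as one group was passed by 3.45% of 1101 tested genes and by 4 of 5 members. It was added after the values were seen, so for the members it only restates these levels.

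Single cells were compared after each was thinned to 1000 UMIs, which kept 82 cells of principal 1 and 168 of principal 2. In principal 1, *Cst11* was detected in 98.8% of cells (93.4 to 99.97), *9230104L09Rik* in 96.3% (89.7 to 99.2), *Cst8* in 57.3% (45.9 to 68.2) and *Cst12* in 18.3% (10.6 to 28.4). In principal 2 the shares were 83.3% (76.8 to 88.6), 64.9% (57.2 to 72.1), 44.6% (37.0 to 52.5) and 19.6% (13.9 to 26.5). Without thinning they were 93.8%, 84.7%, 49.3% and 13.2% in principal 1 and 63.2%, 48.7%, 29.5% and 16.4% in principal 2. In caput basal cells, taken as the background, the thinned shares were 6.97% for *Cst11*, 3.69% for *9230104L09Rik*, 2.46% for *Cst8* and 2.05% for *Cst12* (244 cells; median depths before thinning were 1613 UMIs in principal 1, 924 in principal 2 and 5488 in caput basal cells). All 4 shares in the first 2 principal subclusters lay above this background.

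*Cst12* was patchy. It had a higher UPM level than *Cst8* in principal 2 but was detected in fewer of the thinned cells (33 against 75 of 168). In principal 1, 14 of 144 cells held 98.7% of its UMIs and 3 cells held 50% of them. In principal 2, 35 of 353 cells held 95.02% and 6 cells held 50%. By comparison, the top 14 cells of principal 1 held 41.3% of the UMIs of *Cst11* and 57.2% of those of *Cst8*. Among cells with at least 1000 UMIs, *Cst12* was at 0 in 66 of 82 in principal 1 and 132 of 168 in principal 2, whereas 6 and 17 cells exceeded 10000 UPM and held 82.6% of the *Cst12* UMIs of the cells at that depth in each subcluster. The highest cells reached 42251 and 85042 UPM.

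The spread between cells can be set against that of other genes by the variance of thinned counts over their mean, which is near 1 for counting noise alone. For *Cst12* it was 29.6 in principal 2, the highest of 144 genes with a mean of at least 1, and 22.8 in principal 1, the fifth of 104 (rank 5). The medians over those genes were 2.13 and 2.14. For *9230104L09Rik* the values were 12.1 in principal 2 and 6.02 in principal 1, for *Cst11* 7.62 and 4.78, for *Cst8* 3.98 and 3.21, and for *Cst3* 1.67 and 1.26. By this measure *Cst12* varied the most between cells and *Cst3* the least of the 5. For a given relative spread the measure rises with the mean, and the means differed. In principal 1 they were 18.4 UMIs per 1000 for *Cst11* and 1.41 for *Cst3*, so the order need not hold for relative spread.

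**Figure D3:**
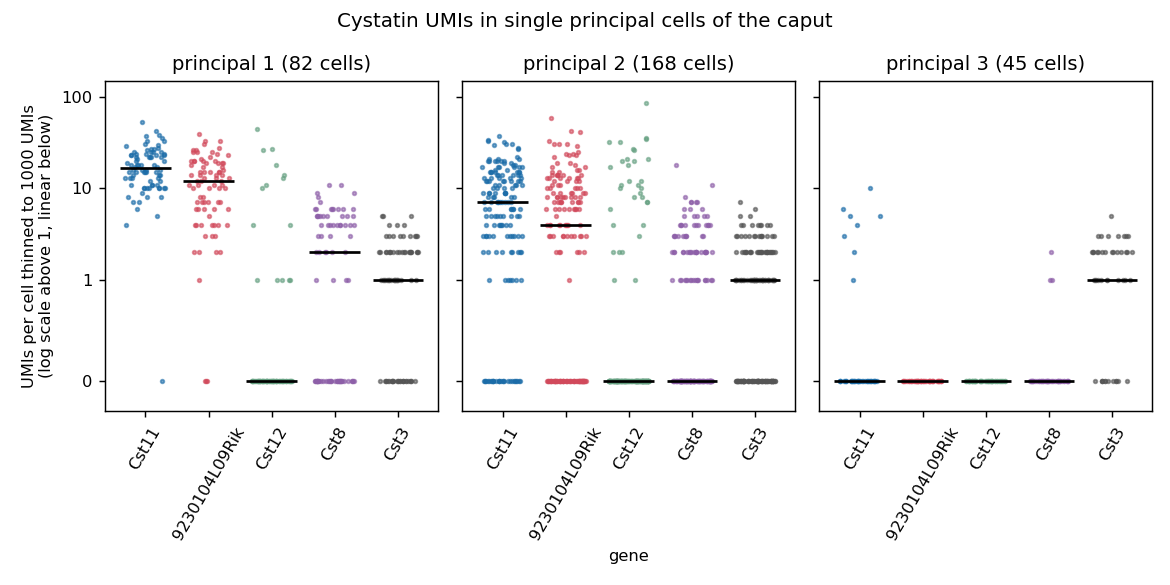
UMIs of each cystatin per cell after thinning to 1000 UMIs (log scale above 1, linear below) in principal 1, 2 and 3; each point is a cell and the black line is the median. *Cst12* has a median of 0 with a few cells above 10, while *Cst11* is found in nearly all cells of principal 1.

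How the cystatins fell together in single cells was compared in principal 2, since nearly all cells of principal 1 had *Cst11* and *9230104L09Rik*. *Cst8*, *Cst11* and *9230104L09Rik* occurred together in 74 of 168 thinned cells (44.0%), and none of the 3 was found in 24. *Cst11* was detected in 33 of 33 cells with *Cst12* (100%, 89.4 to 100) and in 107 of 135 without (79.3%, 71.4 to 85.8). *9230104L09Rik* was detected in 33 of 33 with *Cst12* and in 76 of 135 without (56.3%, 47.5 to 64.8). *Cst8* was detected in 28 of 33 cells with *Cst12* (84.8%, 68.1 to 94.9) and in 47 of 135 without (34.8%, 26.8 to 43.5). *9230104L09Rik* had a median of 14 UMIs per 1000 in cells with *Cst12* and 3 in those without, and *Cst11* had 9 and 6. In principal 1, *Cst8* was detected in 13 of 15 cells with *Cst12* and 34 of 67 without. Cells of principal 2 with *Cst12* thus had each of the other 3 genes more often than cells without it, with intervals that did not overlap, although 5 of the 33 had no *Cst8*. As a description over 168 cells of 1 library at equal depth, Spearman's rho in principal 2 was 0.74 for *Cst11* and *9230104L09Rik*, 0.74 for *Cst8* and *9230104L09Rik*, and 0.70 for *Cst8* and *Cst11*. With *Cst12* the values were 0.52 for *9230104L09Rik*, 0.37 for *Cst8* and 0.21 for *Cst11*. *Cst12* was at 0 in 135 of the 168 cells, and such ties limit rho, so these values are not compared with those above.

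Low counts were found in other cell types of the caput. In caput basal cells *Cst11* stood at 120 UPM (169 UMIs in 25 of 304 cells), *9230104L09Rik* at 56.7, *Cst12* at 30.5 and *Cst8* at 24.8. The principal cells of the same library stood 88.1-fold higher for *Cst11* (75.7 to 103), 133-fold for *9230104L09Rik* (106 to 167), 61.3-fold for *Cst12* (45.4 to 84.9) and 64.5-fold for *Cst8* (46.3 to 92.8). Stromal, clear and endothelial cells of the caput gave 86.1, 117 and 77.7 UPM of *Cst11*. The UMIs of *9230104L09Rik* made up 41.6% of the sum of this gene and *Cst11* in caput principal cells (41.0 to 42.1) and 32.1% in basal cells (26.4 to 38.3), 42.6% in clear cells (29.2 to 56.8) and 33.3% in stromal cells (24.6 to 43.1). The share in basal cells lay below that in principal cells, and those in clear and stromal cells did not differ from it beyond counting error. In caput endothelial cells (50 cells) the share of *9230104L09Rik* was 54.2% (32.8 to 74.4), from 13 and 11 UMIs. The same share for *Cst12* against *Cst11* was 15.04% in principal cells (14.6 to 15.5), 20.3% in basal (15.1 to 26.3), 7.69% in stromal (2.88 to 15.99) and 0% in clear cells (0 to 11.2). In endothelial cells it was 52.2% (30.6 to 73.2), but from 12 UMIs in 4 cells and 11 of *Cst11* in 2 cells. For *Cst8* it was 13.2% in principal cells (12.7 to 13.6), and the intervals of the basal, clear, stromal and endothelial cells all covered that value. Caput immune cells (11 cells, 30602 UMIs) had 0 UMIs of all 4 genes, with an interval that reaches 120.5 UPM.

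*9230104L09Rik* was the only one of the 4 with more than 3 UMIs in vas deferens principal cells, where 29 UMIs lay in 26 of 1360 cells (6.19 UPM, 4.15 to 8.89). All other cells of that library held 6 UMIs, and the principal level was 6.26 times theirs (2.55 to 18.4). Of these, 9 each lay in principal 12 and 13, 5 each in principal 14 and 15 and 1 in principal 11. The low level of this gene in vas deferens principal cells therefore exceeded that of the other cells there beyond counting error.

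*Cst3*, the inhibitor known from most tissues, was detected in all 34 annotated populations. By broad type it stood at 9655 UPM in immune cells, 2861 in basal, 2453 in stromal, 1769 in principal, 1696 in endothelial, 1058 in clear and 158 in muscle cells. Immune cells stood 3.37 times above basal cells (3.27 to 3.48) and 61.1 times above muscle (53.7 to 69.8). At the level of populations, the group labelled BasalMacrophages (15 cells) led with 33850 UPM (31532 to 36293), followed by Dendritic with 25847 (24786 to 26941) and MacrophagesTrem2 with 20701 (19707 to 21732). BasalMacrophages is placed with the basal cells in the annotation, and its basal markers *Krt14*, *Krt5* and *Itga6* had 2 UMIs each, against 125 UMIs of *C1qa* and 56 of *C1qb*, which are macrophage genes. These 2 UMIs are 85.6 UPM (10.4 to 309), below the level of all basal cells for *Krt14* (2880 UPM). For *Krt5* (284 UPM in basal cells) and *Itga6* (245 UPM) the interval covers the basal level. *Cst3* ranked 2 among all genes there, 3 in Dendritic and 5 in MacrophagesTrem2.

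Lower in the order of *Cst3*, BasalLowUM stood at 6712 UPM, Macrophages at 5507, AngryVasStromal at 5225 and Fibroblast at 5015, each named as in the deposited labels. The immune cells were not uniform, since TCell stood at 625 UPM, the third lowest of the 34 populations. Muscle (162) and MuscleGfra4 (157) were the lowest, and their intervals overlapped. Of the 33 pairs of neighbours in the order of the 34 populations, 24 had overlapping intervals, so the order between many of them is not resolved.

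**Figure D4:**
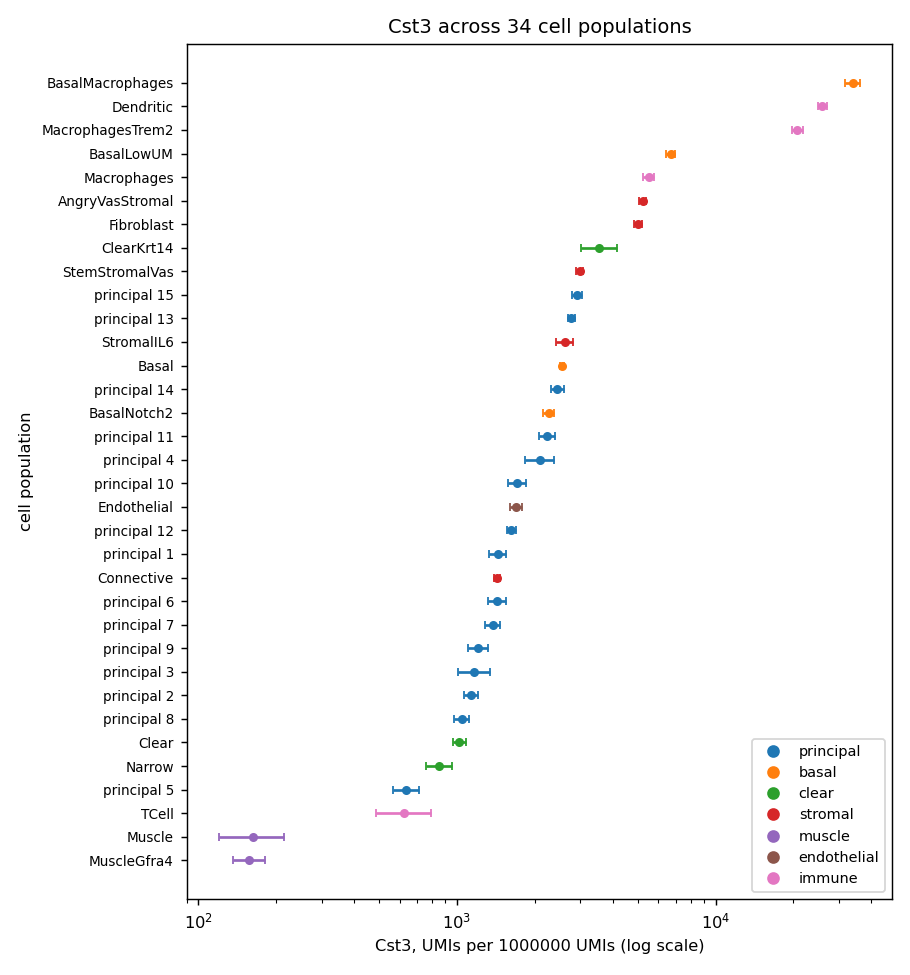
Level of *Cst3* (UMIs per 1000000, log axis) in the 34 cell populations, ordered by level and coloured by cell type, with 95% Poisson intervals. BasalMacrophages, Dendritic and MacrophagesTrem2 stand between 20701 and 33850, TCell at 625 and both muscle populations at 157 and 162.

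Across libraries, the highest level of *Cst3* was between 1.46 and 2.53 times the lowest in every type but muscle (6.38, with 8 UMIs in corpus muscle cells). This was less than the range between immune cells (9655 UPM) and muscle cells (158 UPM). The other types ran only from 1058 UPM (clear) to 2861 UPM (basal), a range like that between libraries. In principal cells the vas deferens stood 1.93 times above the caput (1.84 to 2.02), 1.85 times above the corpus and 1.80 times above the cauda. Among principal subclusters the lowest was principal 5 with 636 UPM and the highest principal 15 with 2911. In basal cells the order was different, with 3726 UPM in the caput, 3082 in the vas deferens, 2696 in the corpus and 1699 in the cauda. In stromal cells the vas deferens was highest (3118) and the cauda lowest (1618), but the stromal populations differed between libraries, with 517 of the StemStromalVas and 213 of the AngryVasStromal cells in the vas deferens. Within Connective, the stromal population with at least 162 cells in every library, the order was another, with 2042 UPM for the caput, 1527 for the corpus, 1170 for the vas deferens and 826 for the cauda. Within the population named Basal the order was that of all basal cells (3169, 3059, 2255 and 1576 UPM). Immune cells had 6928, 8740, 9837 and 10143 UPM from caput to vas deferens, with 11, 38, 28 and 118 cells. These cells were of different kinds in each library, with 0, 1, 1 and 19 Dendritic cells and 4, 13, 6 and 21 TCell cells in the same order. Apart from these and Macrophages, the rest were MacrophagesTrem2, a larger share of the immune cells in the caput than in the vas deferens. The part of this make-up in the immune levels was not tested. Within Macrophages (4, 17, 15 and 68 cells) the levels were 6202, 5479, 5552 and 5473 UPM, with overlapping intervals.

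Other members of the cystatin superfamily were searched for by name. Of 24, 12 were in the matrix and 5 had at least 20 UMIs. *Cst6*, which encodes the secreted cystatin E/M, stood at 60.9 UPM in caput principal cells (49.8 to 73.7), 0 in the corpus and cauda and 0.641 in the vas deferens. *8030411F24Rik*, which lies between *Cst11* and *Cst12*, stood at 19.1 UPM in caput principal cells (33 UMIs), 0 in the corpus and cauda and 0.427 in the vas deferens. Both were caput-restricted by the rule above. Of the others, *Cstb*, the intracellular cystatin B, was highest in basal cells (1379 UPM), *Cst7*, the cystatin F of leukocytes, in immune cells (34.4 UPM, 20 UMIs) and *Fetub*, fetuin B, in clear cells (19.8 UPM). *Cst13* of the same chromosomal run had 3 UMIs, all in caput principal cells.

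The caput rule could be tested for few of the neighbouring genes. Among 18 annotated genes within 300 kb of the members, 10 were in the matrix and 5 of these were not members. Of those 5, *8030411F24Rik* and *Gzf1* had enough UMIs to be tested, and *8030411F24Rik* was caput-restricted while *Gzf1* was not. *Nxt1* (18 UMIs in caput principal cells), *Napb* (7) and *Cst13* (3) had too few to pass. *Nxt1* stood at 10.4, 18.3, 7.47 and 15.4 UPM in principal cells from caput to vas deferens, *Gzf1* at 29.6, 20.4, 22.4 and 13.7, and *Napb* at 4.06, 4.93, 4.02 and 5.34. *Cst3*, at the other end of the run and next to *9230104L09Rik*, was likewise not caput-restricted.

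Of the 11 listed protease targets of cystatins, most were highest in immune cells and none in principal cells. All 11 listed, the papain-like cathepsins *Ctsb*, *Ctsc*, *Ctsf*, *Ctsh*, *Ctsk*, *Ctsl*, *Ctso*, *Ctss*, *Ctsw* and *Ctsz* and the legumain gene *Lgmn*, had at least 20 UMIs. Of these, 7 were highest in immune cells, 2 in basal and 2 in stromal cells and 0 in principal cells, whereas among 13655 genes with at least 20 UMIs 8.60% were highest in immune and 15.96% in principal cells. *Ctss*, a cathepsin of antigen-presenting cells, stood at 1199 UPM in immune and 1.15 in principal cells, and was thus highest in the type where *Cst3* was highest. *Ctsl* was the most abundant of the 11, with 1896 UPM in basal, 489 in caput principal and 125 in principal 1 cells. *Ctsb* stood at 200 UPM in caput principal cells and 1423 in immune cells. In principal 1, where *Cst11* stood at 20014 UPM, *Ctsb* was the highest of these proteases with 153 UPM. Of cathepsins of other classes, which cystatins of this family do not block, *Ctsd* was highest in clear cells (1124 UPM) and *Ctsa* in immune cells (143 UPM).

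The genes most like each member were those with the highest Pearson correlation of log2(UPM + 10) over the 34 populations, among 12370 genes with at least 50 UMIs. The populations share 4 libraries and differ in depth, so these values are descriptions. *Cst8* and *Cst11* were both most like *Defb25* (0.987 and 0.989). *Cst11* came next for *Cst8* (0.973), whereas for *Cst11* the gene *Defb47* (0.988) came before *Cst8*. Both lists held the beta-defensin genes *Defb47* and *Defb48* and *Ly6g5c*, a gene of the Ly6 family. *Cst12* and *9230104L09Rik* were most like *Obp2a*, an odorant-binding lipocalin gene (0.975 and 0.980), and both lists held *Rnase10*, a secreted ribonuclease-like gene of the proximal epididymis (0.966 and 0.965). Over the 15 principal subclusters alone these pairs were not kept. *Cst8* was then most like *Cldn10* (0.997), and its list held *Cst12* (0.993) and *Obp2a* (0.993) but not *Cst11*. *Cst11* was still most like *Defb25* (0.996). Over the 34 populations the correlations among the 4 ran from 0.880 to 0.973, and between *Cst3* and the others from -0.14 to 0.058. *Cst3* was most like *Nuak2*, at 0.768, so no gene followed its pattern as closely.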

How the data were processed

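The deposited UMI counts, 4 libraries of 3′ tags, were made by the authors with HISAT2 2.0.4 on mm10 (the GRCm38 assembly), ESAT counting on RefSeq genes, merging of UMIs that differed by a sequencing error, a filter on UMIs per cell and removal of ambient RNA with a modified SoupX, which took 3.54% of UMIs and could not be undone. The deposited cell labels (library, cluster and subcluster) were used without re-clustering. Subclusters were matched to the study's numbering by equal cell numbers. UMIs were summed per group and divided by the group's total (UPM), with exact Poisson intervals. Tags are 1 per molecule, so levels were not scaled by gene length. Ratios have exact conditional binomial intervals and shares Clopper-Pearson intervals, all at 95%. A group at 0 was raised to 3 UMIs in ratios. In the rules for restricted and enriched genes, any count below 3 UMIs in the other groups was raised to 3.

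Shares were taken after thinning to 1000 UMIs with a fixed seed, and cells below that depth were left out (62 in principal 1, 185 in principal 2). Doublets were called from simulated doublets in each library at a preset rate of 0.8% per 1000 cells (178 cells, 2.00%) and kept in the main values. Genes counted as tested are those with enough UMIs to pass the rule. Rules were tested on simulated data. The genes named are the members, the fixed lists, their neighbours on chromosome 2 and the 5 genes most like each member; of the lists, every gene was counted. The members and lists were chosen with earlier results of these data known, and 39 alternatives were listed. The computations used scipy 1.17.1, scikit-learn 1.9.0, matplotlib 3.10.9, numpy 2.4.6 and pandas 2.3.3 in Python 3.11.15, with GENCODE M21 and RefSeq tables of GRCm38.p6.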

Additional observations from a re-analysis of the deposited data

How the results depend on the processing

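No paired analysis was possible because each region has 1 library. The placing of *Cst8*, *Cst11*, *Cst12* and *9230104L09Rik* was stable: these 4 and not *Cst3* were caput-restricted and principal-restricted at fold thresholds of 2 and 8, a minimum of 50 UMIs, in cells with at least 1000 UMIs and without called doublets. The number of genes that passed changed by over 1.5 times under some of these settings. Caput-restricted genes numbered 548 at a threshold of 2, 146 at 8 and 177 with 50 UMIs. Principal-restricted genes numbered 555 and 145 at 2 and 8. At a threshold of 2, *Cst3* was among the 408 of 2994 tested genes that were immune-restricted. Principal 1-enriched genes numbered 13 of 1904 tested at 2 (with *Cst8* and *Cst11* among them), 0 of 425 at 8 and 2 of 760 in cells with at least 1000 UMIs. The level in caput principal cells became (in UPM) 1704 for *Cst8*, 10972 for *Cst11*, 1979 for *Cst12* and 7915 for *9230104L09Rik* in cells with at least 1000 UMIs, 1091 for *Cst3*, 999 for *Cst8*, 7952 for *Cst11*, 1507 for *Cst12* and 5401 for *9230104L09Rik* as a mean over cells, and 1550 for *Cst3*, 2066 for *Cst8*, 13621 for *Cst11*, 2411 for *Cst12* and 9701 for *9230104L09Rik* with the 20 most abundant genes (no member among them) left out of the total. The ratio of principal 1 to principal 2 became 1.43 for *Cst3*, 2.37 for *Cst8*, 2.45 for *Cst11*, 1.24 for *Cst12* and 1.97 for *9230104L09Rik* with that total and 1.94 for *Cst3*, 2.37 for *Cst11*, 0.687 for *Cst12* and 1.91 for *9230104L09Rik* as a mean over cells, where *Cst12* turned to the other side of 1, as it did without called doublets (0.952). The ratio of *Cst3* in the caput to the vas deferens became 0.442 as a mean over cells, and its ratio of immune to muscle cells 79.6 without called doublets. Shares of principal 1 cells with a UMI became (in percent) 47.1 for *Cst3* and 42.3 for *Cst8* at 500 UMIs, 43.9 for *Cst3* with at least 2 UMIs, 79.3 for *Cst3* with another seed and 84.7 for *9230104L09Rik* without thinning. The causes of these moves, other than the doublet called in principal 1, were not tested. Of the 5 genes most like each member, 2 for *Cst3*, 3 for *Cst8*, 3 for *Cst11*, 2 for *Cst12* and 4 for *9230104L09Rik* were kept with log2(UPM + 1), and 0, 0, 2, 1 and 1 over the 15 principal subclusters alone. Of 119 values recomputed, 71 stayed within their interval or within 1.5 times the count, 46 moved and 2 turned direction. Depth limits what can be said of low levels: a group at 0 is bounded only by its total, and *Cst12* rests on few cells.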

Other observations

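Genes that followed the cystatins from cell to cell within a subcluster were looked at after the levels were known. Over 168 principal 2 cells of 1 library thinned to 1000 UMIs, among 1285 genes, the highest Spearman's rho was with *Lcn8*, a lipocalin gene of the caput, for *Cst8* (0.79) and *9230104L09Rik* (0.85). For *Cst11* it was with *9230104L09Rik* (0.74), ahead of *Defb25* (0.74). For *Cst12* it was with *Adam28* (0.63), a gene of the ADAM family of membrane proteins, ahead of *Lcn9* (0.61) and *Lcn8* (0.58). In principal 1 (82 cells) *Lcn8* was again first for *Cst8* (0.83), whereas *Defb48* was first for *Cst12* (0.52). *Cst3* had no such partner in principal 1, its highest value being 0.36 with *9230104L09Rik*, and in principal 2 its highest was *Hspb1*, a small heat shock protein gene (0.50).

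*Lcn8* also varied widely between cells, with a variance over mean of 19.4 in principal 2 (29.6 for *Cst12*) and 24.9 in principal 1 (22.8 for *Cst12*). In caput cells other than principal cells, the 4 caput cystatins had few counts: *Cst11* had 283 UMIs in 47 cells, of which 2 cells with 26 UMIs were called doublets, and *Cst12* had 61 UMIs in 15 cells, of which 2 cells with 18 UMIs were.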
